A study of Zea mays with 4 samples.

Results

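The plastid genome of maize was described here through the 114 rows of the deposited count table that lie on the plastid sequence (Pt) of B73 RefGen_v4 and carry an identifier starting with ZemaCp, out of 46430 rows in all. These are the protein genes of the chloroplast: 81 rows have a protein gene symbol, 29 have no symbol, and 4 are named as the tRNA genes trnI and trnA, so those 4 go against the label of protein genes and were kept by the rule only. RNA-seq was done on whole seedlings of the inbred line B73, with wild-type genotype in every library. Cold plants spent 24 h at 4 °C after 9 days of growth in a chamber set to 25 to 28 °C (light for 16 h, darkness for 8 h), and control plants stayed in that chamber. Each condition had 2 libraries; 10 plants, 10 days old, were collected whole, and it is not given whether 1 pool or separate pools served the libraries of a condition. The p-values below therefore reflect the spread between libraries, part or all of which may be technical.

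Chloroplasts keep a small genome of their own that encodes part of the photosynthetic machinery, part of the plastid ribosome and the core of a bacterial-type RNA polymerase. The remaining subunits of these complexes are encoded in the nucleus and imported. Most plastid genes are transcribed together with their neighbours on the same strand and the long transcripts are then cut, trimmed and spliced, and a further, nucleus-encoded polymerase reads some of the housekeeping genes. In maize, a C4 plant, the leaf has mesophyll and bundle sheath chloroplasts with different makeup. In whole seedlings, fewer cells of a type and less RNA per cell cannot be told apart.

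Plastid protein genes took a very small part of these libraries. Their summed fragments were 5131 and 3043 in the cold libraries and 3940 and 3793 in the control libraries, of totals of 24176378 and 20942576 fragments in cold and 28493929 and 23713326 in control. As a share of all fragments counted this was 0.0212% and 0.0145% in cold against 0.0138% and 0.0160% in control, so the groups overlapped (exact permutation test, two-sided, p = 0.667, where 2 libraries against 2 cannot give less than 0.333). Of the 114 genes, 40 had no fragment in any library, 36 had 1 to 9 fragments in all, and 38 had 10 or more. A count of 0 allows up to 3 fragments, which is 0.128 and 0.16 CPM in the cold libraries and 0.100 and 0.115 CPM in the control libraries. CPM here is the count scaled to library size in the usual way, with the library size adjusted by TMM, a factor that evens out the bulk of genes between libraries. No molecular identifiers were used, so fragments may be copies of 1 molecule, and every interval on counts below covers counting error only.

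The fragments were concentrated in a few genes. The splicing factor gene matK, the NADH dehydrogenase-like subunit genes ndhK and ndhC, 1 copy of the ribosomal protein gene rps7 and the Rubisco large subunit gene rbcL together held 78.4% and 66.8% of the plastid protein fragments in cold and 70.4% and 67.9% in control. Per kb of gene length, ndhC had 54.7 CPM per kb in cold and 51.5 in control, and the rps7 copy ZemaCp100 had 57.2 and 48.3. At the other end psbA, for the D1 reaction centre protein of photosystem II, had 0.0857 CPM per kb in cold and 0.216 in control, although its transcript is known as one of the most abundant of leaf chloroplasts. The counting command does not ask for reads that map to several places, but how the alignments were filtered before it is not described, and nuclear chromosomes of maize are known to hold copies of plastid DNA. Whether and how much such reads were lost for each gene was not tested, so levels are compared between conditions within a gene rather than between genes. Which part of the plastid RNA entered the libraries was also not tested. A difference between conditions within a gene is therefore one of fragments counted and need not be one of transcript amount.

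Counts were unequal between the copies of the inverted repeat. Plastid genomes carry a long stretch in 2 copies of opposite orientation, and 21 pairs of rows here sit at mirrored positions with the same length. In the pair for rps7, the second copy (ZemaCp100, Pt 130495 to 130965, plus strand) had 544 and 571 fragments in cold and 688 and 589 in control. The first copy (ZemaCp076, Pt 91772 to 92242, minus strand) had 28 and 43 in cold and 42 and 29 in control. For rpl2, a ribosomal large subunit protein gene, the second copy held all 401 fragments of the 4 libraries and the first held 0. For ndhB the second copy held 33 and the first 2. In these 3 pairs the second copy was ahead. The split between near-identical copies is uncertain in every library: these counts are not what leaving out every multi-mapped read from identical copies would give, and the cause was not tested.

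A differential test was possible for 26 of the 114 genes, those that passed a low-count filter, and 88 were too low. Of the 26, 3 were higher in cold and 0 were lower at an adjusted p under 0.05 (edgeR quasi-likelihood test, Benjamini-Hochberg over all 23169 genes tested). Across all tested genes 27.0% were higher and 27.0% lower, so the 11.5% of plastid genes called higher lies below the background rate. With library totals in place of TMM factors the split over all genes was 20.6% higher and 35.3% lower. The plastid genes had a median standard error of 0.44 on the log2 scale, against 0.19 over all genes. At an unadjusted p under 0.05 the counts stayed at 3 higher and 0 lower, beside 29.7% higher and 30.4% lower over all tested genes. DESeq2 called 2 plastid genes higher and 0 lower, beside 25.5% and 22.1% of all tested genes. The 26 genes had a median log2 fold change of 0.20, against -0.03 over all tested genes, with 19 above 0 and 7 below. Both medians depend on the scaling. With upper-quartile factors they were 0.044 and -0.19, and with library totals -0.0073 and -0.24. Scaled to the summed plastid protein fragments they were -0.25 and -0.47. Both cold libraries lay above both control libraries for 9 genes and below for 3, shares that sit beside 38.2% and 41.2% of all tested genes.

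**Figure D1:**
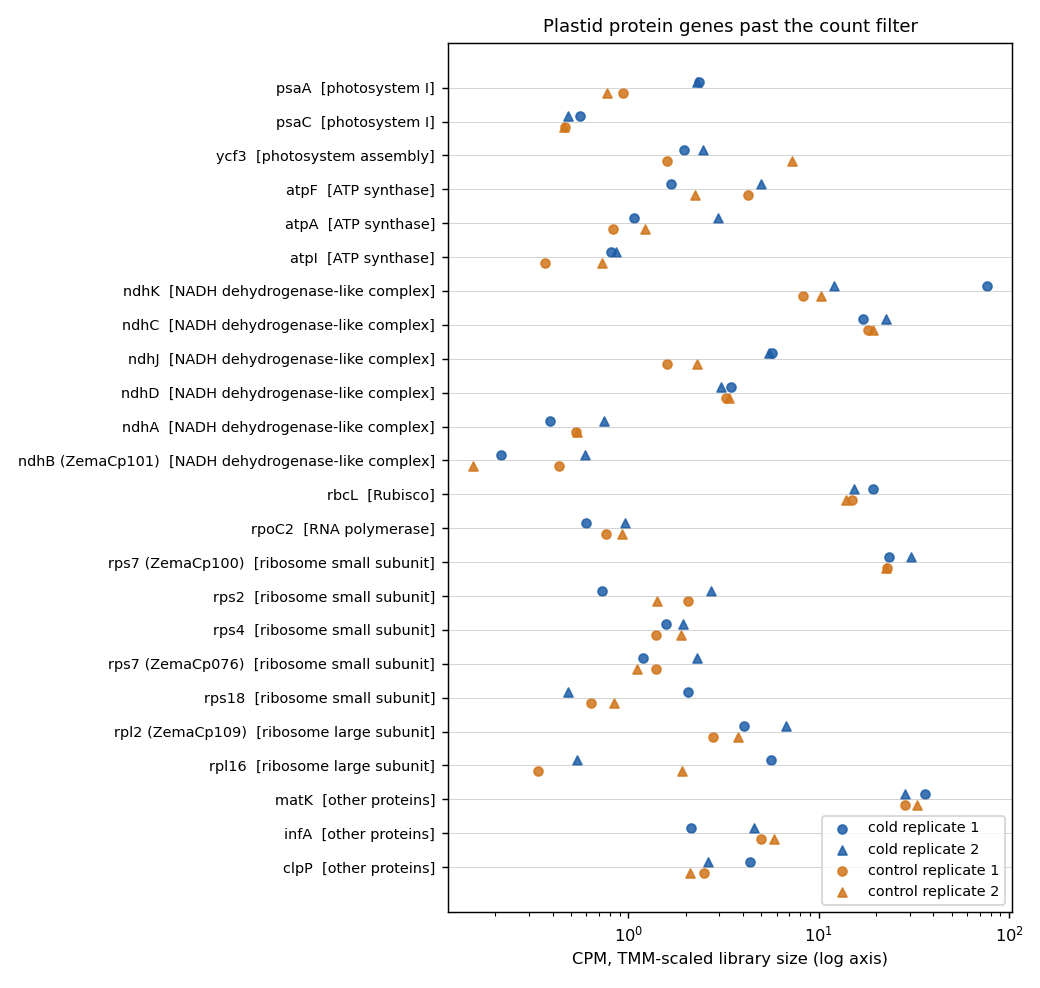
CPM of 24 of the 26 plastid genes that passed the low-count filter, in each of the 4 libraries, on a log axis and grouped by complex (blue: cold, orange: control; circles: replicate 1, triangles: replicate 2). For ndhJ and psaA both cold libraries lie above both control libraries, while ndhK stands far above the other 3 libraries in cold replicate 1.

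The NADH dehydrogenase-like complex, which returns electrons from ferredoxin to the plastoquinone pool in cyclic electron flow and is known to be rich in bundle sheath chloroplasts of maize, held 2 of the 3 calls. It has 11 subunit genes in the plastid, here in 12 rows because ndhB lies in the inverted repeat, and 6 rows were tested. Its summed fragments were 2412 and 832 in cold and 976 and 939 in control. The cold libraries were both above control in CPM, at 73.9 ± 41.6 against 34.3 ± 2.47 (SD, n = 2 each), with a wide spread in cold. Without ndhK the log2 ratio of the summed CPM was 0.25, against 1.11 with it.

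The gene ndhJ (ZemaCp027, Pt 50535 to 51014, minus strand), for a subunit of the arm that extends from the membrane, had 132 and 103 fragments in cold and 48 and 60 in control. The groups did not overlap, and the cold replicates lay close together at 5.58 ± 0.10 CPM against 1.95 ± 0.50 in control (SD, n = 2 each). Its log2 fold change was 1.52 (SE 0.28, edgeR adjusted p = 0.003), a 2.87-fold rise that kept its call without any 1 library and with DESeq2.

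Next to it on the same strand, ndhK (ZemaCp028, Pt 51118 to 51801), also in that arm and a carrier of an iron-sulfur cluster, had 1782 and 224 fragments in cold and 247 and 269 in control. Cold replicate 1 stood far above the rest, and cold replicate 2 lay just above the control libraries once scaled, at 12.0 CPM against 8.24 and 10.3. Scaled by library size it had 6.37 times the level of cold replicate 2 (95% counting interval 5.54 to 7.35), while the control replicates differed by a factor of 0.798. The log2 fold change of 2.26 (SE 0.70, edgeR adjusted p = 0.027) became 0.37 without cold replicate 1 (adjusted p = 0.15), so the call rests on that library. It was also not called without control replicate 2 (2.43, adjusted p = 0.053) or by DESeq2 (adjusted p = 0.09), and over all alternatives the adjusted p ran from 5.3e-10 to 0.15.

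The third gene of the cluster, ndhC (ZemaCp029, Pt 51855 to 52217, minus strand), for a membrane subunit, had 400 and 422 fragments in cold and 545 and 500 in control. It did not pass the test, with a log2 fold change of 0.08 and a 95% interval of -0.30 to 0.47, and its sign turned with library totals (-0.13). The 3 genes are known to be transcribed together from ndhC towards ndhJ. Within a library the fragments of ndhJ were 0.33 and 0.244 of those of ndhC in cold and 0.0881 and 0.12 in control, so the ratio was higher in both cold libraries. The fragments of ndhK were 4.46 and 0.531 of those of ndhC in cold and 0.453 and 0.538 in control, so only cold replicate 1 stood apart.

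Beyond ndhJ, on the opposite strand, lie the tRNA genes trnF and trnL, which are not members. They had 314 and 315 fragments (trnF) and 65 and 75 (trnL) in cold, and 206 and 174 (trnF) and 31 and 39 (trnL) in control. Their log2 fold changes were 1.16 (trnF, edgeR adjusted p = 0.0015) and 1.42 (trnL, edgeR adjusted p = 0.012). Of the 7 plastid tRNA rows tested, these 2 were called higher and 0 lower, beside 27.0% of all tested genes in each direction. Counting did not use strand, so reads from either strand count for a gene here.

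The rest of the complex showed no call. The other tested rows, ndhD, ndhA and the second copy of ndhB, had log2 fold changes of -0.02, 0.06 and 0.37, with adjusted p-values of 0.94, 0.94 and 0.70 (edgeR). The gene ndhD had 81 and 57 fragments in cold and 98 and 88 in control, and its 95% interval of -0.62 to 0.57 holds both directions. The 6 untested rows, among them ndhF, ndhE, ndhG, ndhI and ndhH, had 3 and 1 fragments together in cold and 9 and 4 in control.

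Photosystem I, the complex that reduces ferredoxin, has 5 genes in the plastid. Its summed fragments were 76 and 60 in cold and 64 and 41 in control, which is 3.23 ± 0.03 CPM in cold against 1.85 ± 0.40 in control (SD, n = 2 each). The ratio of sums scaled by library size was 1.73 (95% counting interval 1.33 to 2.25). Both cold libraries were above both control libraries, and 1 of the 2 tested genes was called. That gene, psaA, held 55 and 43 of the summed fragments in cold and 28 and 20 in control. The 3 untested genes together had 8 and 8 in cold and 22 and 9 in control. Their scaled ratio was 0.688 (95% counting interval 0.351 to 1.30), so the higher sum in cold was not shared by these genes.

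The called gene was psaA (ZemaCp023, Pt 41352 to 43604, minus strand), for one of the large proteins of the reaction centre. It had 55 and 43 fragments in cold and 28 and 20 in control. The groups did not overlap, at 2.33 ± 0.04 CPM in cold and 0.851 ± 0.117 in control (SD, n = 2 each), and psaA rose by 1.44 on the log2 scale (SE 0.35, edgeR adjusted p = 0.010). Without control replicate 2 the change was 1.31 and not called (adjusted p = 0.066), nor was it called with the summed plastid protein fragments as library size (0.99, adjusted p = 0.086), and over all alternatives the adjusted p ran from 0.0027 to 0.086.

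Its partner psaB, which lies beside it on the same strand and encodes the other large reaction centre protein, had 1 and 2 fragments in cold and 2 and 2 in control. The small ribosomal protein gene rps14, at the end of the same known cluster, had 0 in each of the 4 libraries. A psaB change like that of psaA could not be seen at this depth, since the 95% counting interval of its cold to control ratio runs from 0.146 to 5.91. For psaC, which carries the terminal iron-sulfur clusters and lies in another region, counts were 13 and 9 in cold and 14 and 12 in control (log2 fold change 0.17, edgeR adjusted p = 0.79). The small subunit gene psaJ had 7 and 6 in cold and 20 and 7 in control and was not tested, and psaI had no fragment.

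The photosystem assembly factor gene ycf3 (ZemaCp024, 3 exons, minus strand) lies in the same run of genes as psaA. It had 46 and 46 fragments in cold and 48 and 189 in control. Control replicate 2 alone was high, with control replicate 1 at 0.221 times its scaled level (95% counting interval 0.157 to 0.304). The log2 fold change of -0.99 (SE 0.62, edgeR adjusted p = 0.21) turned to 0.46 without control replicate 2 and was -1.70 and called (adjusted p = 0.0036) without control replicate 1. It was also called lower with the plastid protein sum as library size (-1.39, adjusted p = 0.0019), with that sum without ndhK (adjusted p = 0.036) and with no low-count filter (adjusted p = 0.017), with adjusted p-values from 0.0019 to 0.46 over all alternatives. The other assembly factor gene, ycf4, had no fragment.

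Photosystem II, which splits water, could not be tested for any of its 15 genes. Together they had 31 and 16 fragments in cold and 29 and 22 in control, so that cold was at 1.23 times control after scaling (95% counting interval 0.809 to 1.86). Of the 15, 5 had no fragment in any library (psbK, psbZ, psbJ, psbB and psbN).

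Within this small set the reaction centre genes had few fragments and intervals that cover counting error only, so no difference in direction is read from them. The D1 gene psbA had 3 and 1 fragments in cold and 8 and 5 in control, with both cold libraries below control and a scaled ratio of 0.41 (95% counting interval 0.0974 to 1.33). The D2 gene psbD had 15 and 7 in cold and 8 and 6 in control, a ratio of 2.09 (95% counting interval 1.02 to 4.4). The inner antenna gene psbC, which overlaps psbD on the same strand, had 3 and 2 in cold and 0 and 0 in control. Reads that overlap both genes were left out of the counts, and psbC also overlaps a short RNA row by 187 bases. None of these genes had a replicate test in the filtered fit, and none was called when the filter was dropped. The gene psbM, for a small subunit, had 6 and 4 fragments in cold and 5 and 8 in control.

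The cytochrome b6f complex, which passes electrons between the photosystems, had 8 and 6 fragments in cold and 11 and 6 in control over 6 genes, with none tested. The small subunit gene petG held most of them, 7 and 3 in cold and 6 and 5 in control, and petN had 0 and 2 in cold and 1 and 0 in control. The genes for cytochrome f (petA) and cytochrome b6 (petB) had 1 fragment or fewer per library, and petD had 0.

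Rubisco, the enzyme that fixes CO2, has 1 plastid gene, rbcL (ZemaCp032, Pt 56874 to 58304, plus strand). It had 449 and 286 fragments in cold and 447 and 360 in control. Scaled by library size, both cold libraries were above control, at 17.3 ± 2.78 against 14.4 ± 0.77 CPM (SD, n = 2 each), but the difference did not pass the test (log2 fold change 0.27, 95% interval -0.11 to 0.65, edgeR adjusted p = 0.20). It was called only without cold replicate 2 (0.43, adjusted p = 0.043), and scaled to the summed plastid protein fragments its sign turned to -0.20. Over all alternatives its adjusted p ran from 0.043 to 0.79.

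**Figure D2:**
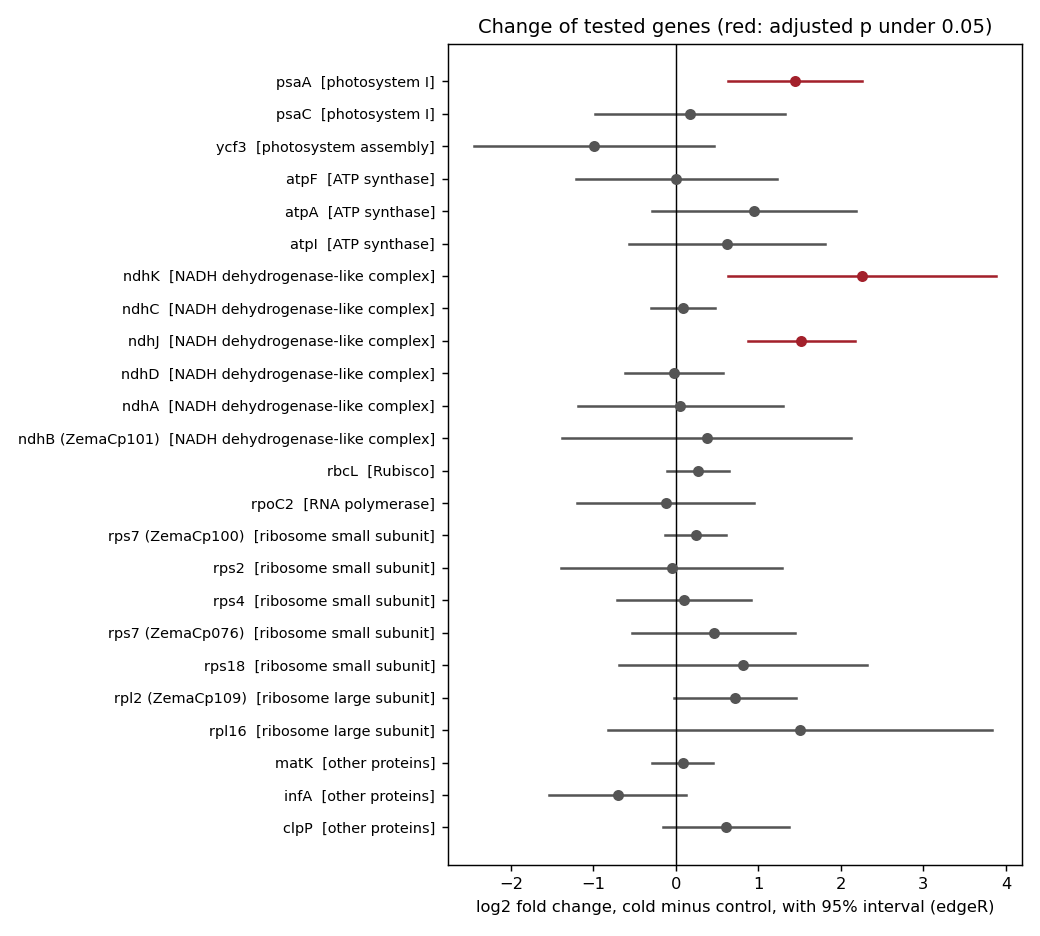
Log2 fold change, cold minus control, of 24 of the 26 tested genes with 95% intervals from edgeR, grouped by complex (red: adjusted p under 0.05). The intervals of psaA, ndhK and ndhJ lie above 0, and those of the other 21 genes drawn include 0.

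The ATP synthase has 6 plastid genes in separate clusters, with 4 of them (atpI, atpH, atpF and atpA) behind rps2 and the RNA polymerase genes on the plus strand. Summed fragments were 94 and 174 in cold and 183 and 123 in control, so the groups overlapped (ratio 1.17, 95% counting interval 0.987 to 1.38). None of the 3 tested genes was called.

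The gene atpF, for a stator subunit, had 39 and 93 fragments in cold and 128 and 58 in control (log2 fold change 0.00, SE 0.52). The catalytic-head gene atpA had 25 and 55 in cold and 25 and 32 in control (0.94, SE 0.53, edgeR adjusted p = 0.17); it was 1.52 and called without cold replicate 1 (adjusted p = 0.016) and 0.074 without cold replicate 2, with an adjusted p of 0.016 to 0.91 over all alternatives. The proton channel gene atpI had 19 and 16 in cold and 11 and 19 in control (0.62, adjusted p = 0.33). For atpF and atpA the cold replicates differed more than the conditions did. The ring subunit gene atpH had 6 and 4 in cold and 5 and 7 in control, and was not tested. The remaining pair, atpB and atpE, overlaps by 4 bases on the minus strand and had 5 and 6 fragments together in cold and 14 and 7 in control.

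The 4 RNA polymerase genes were almost all below detection. Of them rpoC2 was tested, with 14 and 18 fragments in cold and 23 and 24 in control over the longest gene of the set (log2 fold change -0.12, 95% interval -1.20 to 0.95). The gene rpoB had 0 and 0 fragments in cold and 1 and 0 in control, and rpoC1 and rpoA had 0 in each library.

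Ribosomal protein genes made up 25 rows, 14 for the small and 11 for the large subunit, and 9 were tested with no call. The small subunit sum was 742 and 777 fragments in cold and 968 and 853 in control, or 36.7 ± 6.91 against 32.5 ± 0.33 CPM (SD, n = 2 each), and the groups overlapped. The rps7 copy ZemaCp100 held most of it. Its log2 fold change was 0.24 (95% interval -0.13 to 0.60, edgeR adjusted p = 0.23), and the first copy had 0.46 (adjusted p = 0.39). Without cold replicate 1 the ZemaCp100 copy was called (0.42, adjusted p = 0.015), and over all alternatives its adjusted p ran from 0.015 to 0.91. The genes rps2, rps4 and rps18, which were tested as well, had log2 fold changes of -0.049, 0.10 and 0.81, of which rps18 was called without cold replicate 2 (1.49, adjusted p = 0.029) and -0.61 without cold replicate 1 (adjusted p = 0.029 to 0.71 over all alternatives). The 7 untested rows had 1 and 3 fragments in cold and 7 and 13 in control. Of the 13 fragments of control replicate 2, 11 came from rps3.

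The large subunit sum was 249 and 149 fragments in cold and 108 and 168 in control, 9.32 ± 1.91 against 5.02 ± 2.01 CPM (SD, n = 2 each). Both cold libraries were above control. The gene rpl2 (ZemaCp109) had 94 and 126 fragments in cold and 83 and 98 in control, with no overlap in CPM and a log2 fold change of 0.72 (95% interval -0.03 to 1.46, edgeR adjusted p = 0.093). It was called without cold replicate 1 (1.05, adjusted p = 0.012) and with no low-count filter (adjusted p = 0.029), and was 0.32 without cold replicate 2, with an adjusted p of 0.012 to 0.48 over all alternatives. It overlaps the row ZemaCp110 on the other strand by 326 bases. The gene rpl16 had 131 and 10 in cold and 10 and 50 in control. Here each condition had a high and a low library, and the log2 fold change of 1.5 (SE 1.0, adjusted p = 0.24) turned to -1.04 without cold replicate 1. It was called without cold replicate 2 (2.36, adjusted p = 0.021) and with no low-count filter (adjusted p = 0.0078), with an adjusted p of 0.0078 to 0.53 over all alternatives. The 9 untested large subunit rows had 24 and 13 fragments in cold and 15 and 20 in control.

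Among the proteins outside these complexes, matK is the most abundant member by fragments summed over the 4 libraries, though ndhK had more in cold replicate 1. The gene matK (Pt 1674 to 3215, minus strand) lies within the span of trnK on the same strand (Pt 1386 to 3946, 2 exons). Whether its fragments came from transcripts of trnK was not tested. For matK, a factor needed to splice plastid introns, there were 846 and 529 fragments in cold and 848 and 856 in control. It did not pass the test (log2 fold change 0.08, 95% interval -0.29 to 0.45, turned to -0.13 with library totals). The gene clpP, for the protease subunit that degrades stromal proteins, had 102 and 49 in cold and 75 and 55 in control (0.61, edgeR adjusted p = 0.16). It was 0.93 and called without cold replicate 2 (adjusted p = 0.040) and 0.18 without cold replicate 1, with an adjusted p of 0.040 to 0.84 over all alternatives.

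The translation initiation factor gene infA (ZemaCp057, Pt 78085 to 78408, minus strand) had 50 and 85 fragments in cold and 149 and 152 in control. Both cold libraries lay below control, at 3.34 ± 1.70 against 5.40 ± 0.61 CPM (SD, n = 2 each), and with TMM scaling the difference did not pass the test (log2 fold change -0.71, SE 0.35, adjusted p = 0.13). With library totals and no scaling factors infA was called lower (-0.93, adjusted p = 0.044), a scaling that moves the median of all genes to -0.24. It was also called lower without cold replicate 2 (-1.32, adjusted p = 0.0083), with the plastid protein sum as library size (-1.08, adjusted p = 0.010), with that sum without ndhK (-0.90, adjusted p = 0.019) and with no low-count filter (adjusted p = 0.032). Without cold replicate 1 the change was -0.25 and not called, and over all alternatives the adjusted p ran from 0.0083 to 0.48. The envelope protein gene cemA had no fragment, and ccsA, for cytochrome c maturation, had 2 and 1 in cold and 2 and 0 in control.

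**Figure D3:**
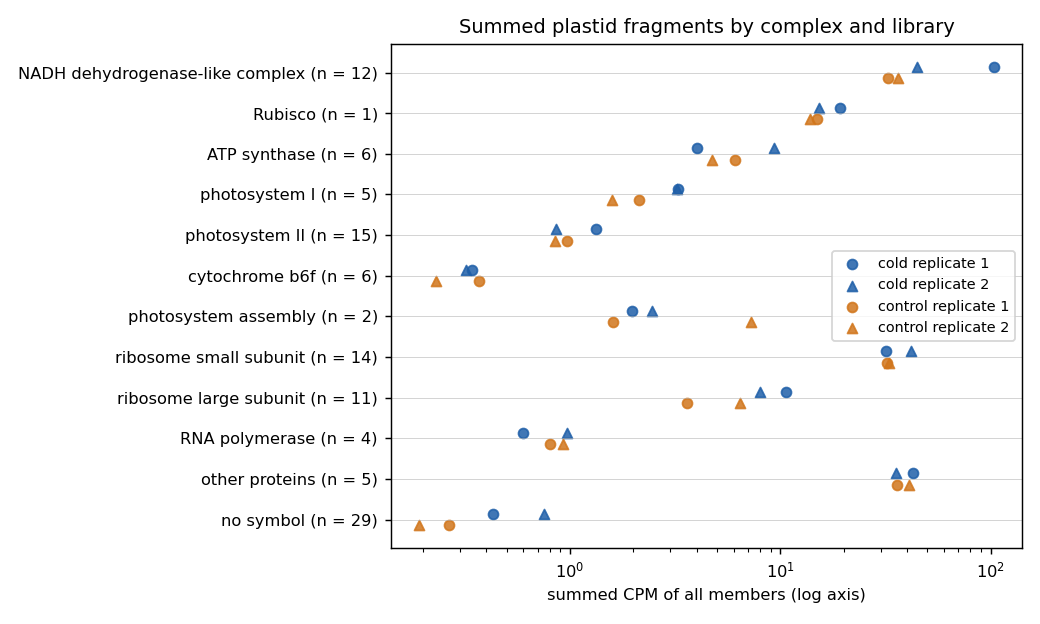
Summed CPM of all members of each complex in the 4 libraries, on a log axis (blue: cold, orange: control; circles: replicate 1, triangles: replicate 2; n is the number of rows). Photosystem I, the NADH dehydrogenase-like complex, Rubisco, the large ribosomal subunit and the rows with no symbol have both cold libraries above both control libraries, and in the other groups the conditions overlap.

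Rows with no symbol numbered 29, of which 19 had no fragment in any library. Together they had 10 and 14 fragments in cold and 8 and 5 in control. Of these, 7 and 6 in cold and 3 and 1 in control fell on ZemaCp158 (Pt 123876 to 124025, minus strand), which lies within the span of a trnA gene in the second copy of the inverted repeat. Its mirrored row ZemaCp157 had 0 in each library. ZemaCp111 had 2 and 2 fragments in cold and 1 and 0 in control. The 4 rows named as tRNA had 1 fragment in all, in cold replicate 2. All 88 untested genes together had 98 and 73 fragments in cold and 123 and 93 in control, so that cold was at 1.06 times control after scaling (95% counting interval 0.858 to 1.30).

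Ordered along the genome, the 114 genes fall into 28 runs of neighbours on 1 strand, 20 of them with more than 1 gene. A run sums gene bodies only and was not tested. The minus-strand run of 10 genes from rps14 to atpB held all 3 calls: its summed CPM was 76.2 ± 41.1 in cold and 37.3 ± 6.78 in control (SD, n = 2 each). Its fragments were 2458 and 882 in cold and 974 and 1096 in control. Of these, ndhK held 1782 and 224 in cold and 247 and 269 in control. The log2 ratio of the summed CPM was 1.03, and 0.34 without cold replicate 1, so the size of this difference rests largely on ndhK in that library. This run joins genes of the known clusters psaA to rps14, ndhC to ndhJ and atpB to atpE, with ycf3 and rps4. The tRNA genes trnL and trnF lie within its span on the opposite strand. It is therefore not 1 known unit, and whether its genes changed together was not tested. The genes psaA, ndhJ and ndhK were called higher, and ycf3, rps4 and ndhC were not. The gene rps4 had 37 and 36 fragments in cold and 42 and 49 in control. Its log2 fold change was 0.10, with an edgeR interval of -0.72 to 0.91 that holds both directions. The genes atpE and atpB had 11 or fewer fragments in each library.

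The plus-strand run of 8 genes from rpoB to atpA had 120 and 237 fragments in cold and 255 and 177 in control. Its cold replicates stood apart: scaled by library size, cold replicate 1 had 0.267 times the level of cold replicate 2 for rps2, 0.336 times for atpF and 0.364 times for atpA. For atpI the factor was 0.951, with a 95% counting interval of 0.463 to 1.98. In control the same factor was 1.46 for rps2, 1.92 for atpF and 0.679 for atpA.

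The run of 12 genes from rpoA to rpl2 on the minus strand, the large ribosomal protein cluster, had 262 and 169 fragments in cold and 274 and 336 in control, with overlapping groups (ratio 0.942, 95% counting interval 0.831 to 1.07). Within it infA was lower in both cold libraries without being called. The gene rpl14 had 8 and 6 fragments in cold and 6 and 7 in control, too few for the test and for a direction to be read. Next to these, rpl16 and rps3 had large differences between replicates.

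The run of 14 rows from ndhD to ZemaCp159, which holds the ndhH to ndhD cluster with psaC, had 112 and 88 fragments in cold and 138 and 118 in control. Its CPM was 4.75 ± 0.06 in cold and 4.57 ± 0.05 in control (SD, n = 2 each), and with library totals the log2 ratio turned to -0.15. The fragments of psaC were 0.16 and 0.158 of those of ndhD in cold and 0.143 and 0.136 in control. The minus-strand pair clpP and rpl20 had 102 and 49 fragments in cold and 77 and 55 in control. The plus-strand cluster psbK to psbZ had 18 and 10 in cold and 10 and 7 in control (ratio 2.20, 95% counting interval 1.16 to 4.28). Most of these were of psbD, with 15 and 7 in cold and 8 and 6 in control, and psbK and psbZ had 0 in each library.

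**Figure D4:**
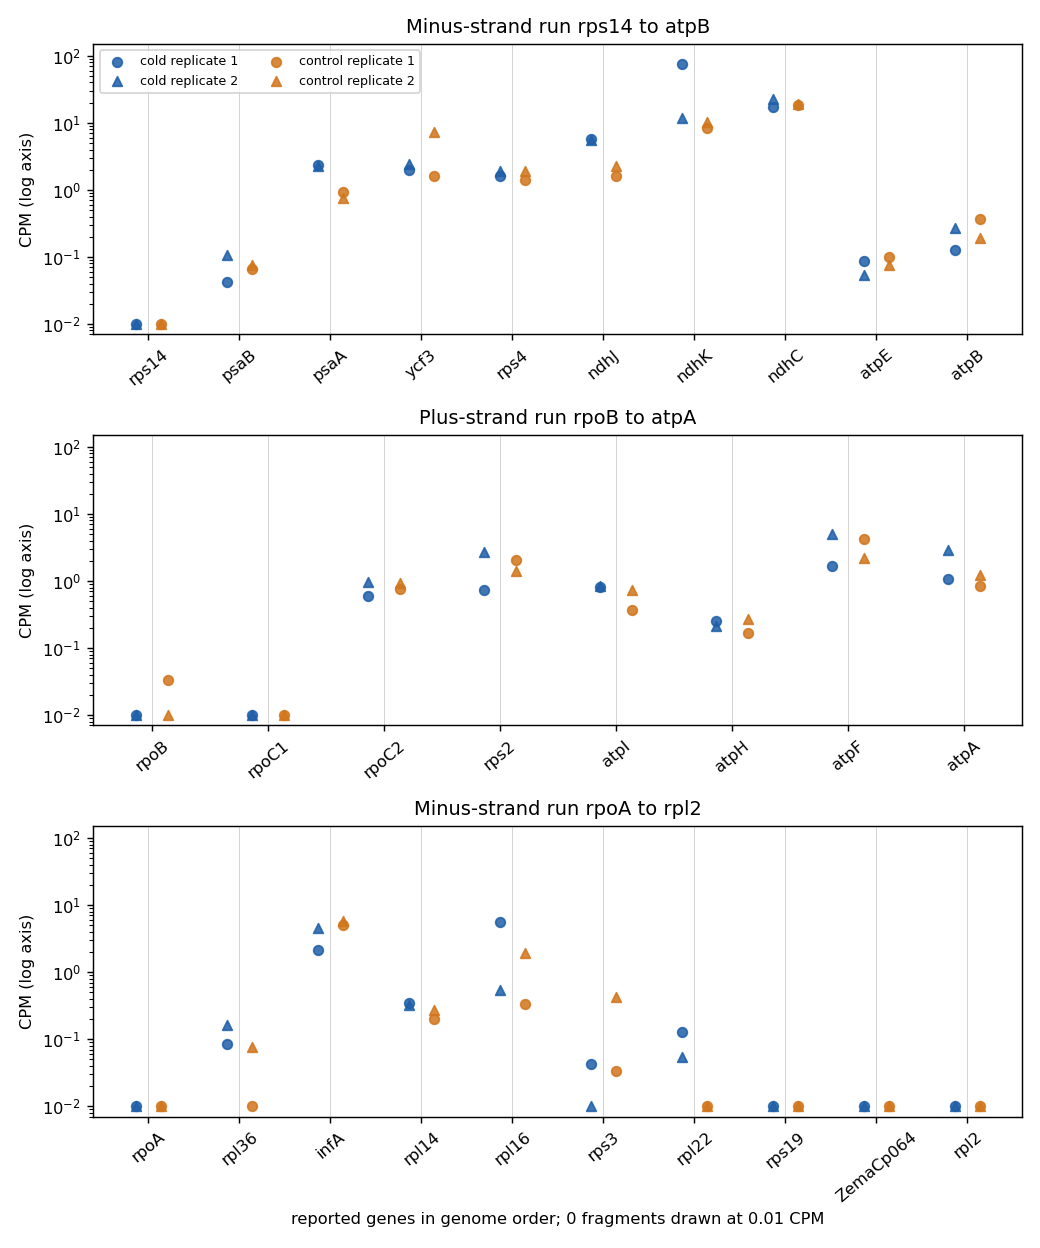
CPM of the genes reported, in genome order, in 3 runs of neighbouring genes on 1 strand, by library, on a log axis with 0 fragments drawn at 0.01 CPM (blue: cold, orange: control; circles: replicate 1, triangles: replicate 2). In the run rps14 to atpB, psaA and ndhJ are higher in both cold libraries and ndhK in cold replicate 1, and in the run rpoB to atpA cold replicate 1 lies below cold replicate 2 at rps2, atpF and atpA.

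Replicates of a condition differed by more than counting error for part of these genes. Over genes with at least 20 fragments in a condition, the 95% counting interval of the replicate ratio excluded 1 for 14 of 26 genes in cold and 7 of 26 in control, shares of 53.8% and 26.9%. Over all genes of the table with as many fragments the shares were 45.5% in cold and 34.6% in control. The replicates differed over 2-fold for 7 genes in cold (rps2, atpF, atpA, ndhK, rps18, infA and rpl16) and 3 in control (ycf3, psaJ and rpl16), which is 26.9% and 11.5%, beside 5.14% and 3.90% of all genes. The plastid genes had fewer fragments, with a median sum of 104 in cold against 584 over all genes, and the difference was not tested. In cold, replicate 1 was the higher for ndhK, rps18 and rpl16 and the lower for the other 4.

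Other organelle RNA had these levels. Plastid rRNA rows had 10.7 and 12.4 CPM in cold and 3.63 and 3.65 in control, plastid tRNA rows 22.5 and 29.5 in cold and 17.0 and 16.0 in control, and all mitochondrial rows 1392 and 1254 in cold and 728 and 640 in control. For these classes both cold libraries were above both control libraries, and for their shares of all fragments the exact two-sided permutation test gave p = 0.333, the smallest it can give. The plastid protein genes without ndhK had 143 and 151 CPM in cold and 123 and 135 in control with TMM factors. As a share of all fragments counted the same sum was 0.0139% and 0.0135% in cold and 0.0130% and 0.0149% in control, so with library totals the groups overlapped. The part of organelle RNA amount in the results above was not tested.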

How the data were processed

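The authors deposited raw counts of fragments per gene, 1 column per library, made with featureCounts 1.6.4, per the file headers, on release 43 of the annotation of B73 RefGen_v4. The command counts read pairs as fragments, uses no strand and sets no option for multi-mapped reads or for reads over more than 1 gene, which by that tool's default leaves out both kinds; the counts of the inverted-repeat copies do not show that every multi-mapped read was left out; 16 of the 114 genes overlap another plastid row, 1 of them tested. The alignments had been filtered by a step that the headers name but do not describe. The submitters' processing notes also name fastp and HISAT2, with no version. Gene length is another deposited value. Symbols came from a RefSeq table of Zm-B73-REFERENCE-NAM-5.0, which matched 114 of 114 identifiers and was used for names only; coordinates are those of the deposited table. Nuclear identifiers were not paired with names, so no cell type markers were checked.

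All genes were fitted with edgeR 4.0.16 in R 4.3.3: filterByExpr (minimum count 10, minimum total 15; 23169 genes left), TMM factors between 0.893 and 1.10, quasi-likelihood F test with condition as the only term, two-sided, Benjamini-Hochberg threshold 0.05. The standard error is the size of the log2 fold change divided by the square root of F. Ratios of sums use the TMM-scaled library sizes with exact conditional binomial 95% intervals. The procedure was tested on simulated data in which only better-counted genes were changed, with the spread taken from the trend over all genes. That does not show how it performs at the low counts and wide replicate spread of the plastid genes. Complexes are textbook lists, and runs join neighbouring genes on 1 strand. Every member may be named; libraries are shown for called genes, for the 2 most abundant of each complex and for runs that hold a call, and other genes were chosen after their values were seen. The members and lists were chosen with earlier results of these data known. Alternatives were RLE, upper-quartile and no factors, scaling to summed plastid protein fragments, other filters, DESeq2 1.42.0, the replicate number as a block, other run definitions, and leaving out each library, where a lone library is assumed to vary like the others. Sums without ndhK and scaling without ndhK, and replicate ratios over all genes, were added after seeing the data. Values of 2 tested genes are not reported here; they stay in the counts and sums.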

Additional observations from a re-analysis of the deposited data

How the results depend on the processing

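Counts of plastid protein genes called higher and lower were 3 and 0 with TMM factors, and the same with RLE factors, upper-quartile factors and the replicate number as a block. They were 3 and 1 with library totals and 2 and 2 when scaled to the plastid protein sum. Leaving ndhK out of that sum gave 3 and 2. With no low-count filter the counts were 5 and 2, of 74 plastid genes tested. With at least 5 CPM in 2 libraries they were 1 and 0, of 6 plastid genes tested. There the gene called was ndhK, and psaA and ndhJ were not tested. Over all genes 27.0% were higher and 27.0% lower with TMM factors, 28.0% and 25.8% with RLE factors, 22.4% and 33.9% with upper-quartile factors, 20.6% and 35.3% with library totals, 11.8% and 35.6% with the plastid protein sum, 21.4% and 34.7% with that sum without ndhK, 22.1% and 22.3% with no filter and 30.6% and 29.6% at 5 CPM. Leaving out 1 library at a time gave 1 to 7 higher and 0 to 1 lower: 5 and 0 without cold replicate 1, 7 and 1 without cold replicate 2, 3 and 1 without control replicate 1, and 1 and 0 without control replicate 2, beside 19.8% to 27.6% higher and 17.8% to 27.8% lower over all genes. The block changed none of the calls of the 26 genes. The correlation of same-numbered libraries' deviations was -0.0711 over all tested genes and -0.503 over the 26 plastid genes. It sets the difference between the cold replicates against that between the control replicates, gene by gene. The labels give no shared source, and whether same-numbered libraries share more than a number cannot be told from these values.

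Signs turned for some genes. Log2 fold changes of matK were -0.079 with upper-quartile factors, -0.13 with library totals, -0.38 scaled to the plastid protein sum and -0.10 to that sum without ndhK, and those of ndhC were -0.076, -0.13, -0.32 and -0.11. With the plastid protein sum rbcL had -0.20 and rps7 (ZemaCp100) -0.17. With 1 library left out the values ran from -0.11 to 0.26 for matK, -0.11 to 0.27 for ndhC, -1.70 to 0.46 for ycf3, -0.61 to 1.49 for rps18, -1.04 to 3.21 for rpl16 and -0.061 to 0.87 for rps7 (ZemaCp076).

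Among sums by complex, log2 ratios with library totals, with the plastid protein sum and with that sum without ndhK were -0.18, -0.42 and -0.15 for other proteins, -0.045, -0.23 and -0.020 for the small ribosomal subunit, and 0.062, -0.20 and 0.078 for Rubisco. Photosystem I had 0.35 with the plastid protein sum. Leaving out 1 library gave -0.43 to 0.78 for ATP synthase, 0.38 to 1.59 for the NADH dehydrogenase-like complex (0.25 without ndhK), 0.091 to 0.42 for Rubisco, 0.60 to 1.04 for photosystem I, -1.71 to 0.47 for photosystem assembly, 0.53 to 1.37 for the large ribosomal subunit and -0.033 to 0.35 for the small one.

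Among runs, with library totals, the plastid protein sum and that sum without ndhK, rbcL to petA had 0.064, -0.20 and 0.080, and ndhD to ZemaCp159 had -0.15, -0.38 and -0.13. The ndhD run had 0.091 with RLE factors, -0.10 with upper-quartile factors, -0.027 when broken at gaps over 1000 bases and -0.036 as its textbook unit. With the plastid protein sum psbA to rps16 had -0.39, rpl20 to clpP 0.080, rpoA to rpl2 -0.57 and ZemaCp098 to ndhB -0.16 (0.026 with library totals). Leaving out 1 library gave 0.028 to 0.43 for ZemaCp098 to ndhB, -0.017 to 0.90 for ndhB to ZemaCp077, -0.61 to 0.77 for petL to rps18, 0.10 to 0.42 for rbcL to petA, 0.16 to 0.90 for rpl20 to clpP, -0.57 to 0.73 for rpoB to atpA and 0.34 to 1.5 for rps14 to atpB (0.20 without ndhK). The cold minus control share of all fragments was -0.000254 percentage points without ndhK and -0.000381 to 0.00631 with 1 library left out. Low counts limit the 88 untested genes. The causes of these changes were not tested.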
